A study of Mus musculus with 2 samples.

Results

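Noncoding RNAs that were well expressed in mouse liver were compared between fasting and feeding. They were selected on the measured values themselves: transcripts with a RefSeq noncoding identifier (prefix NR_) whose probe the scanner software marked as well above background on the 2 arrays, and whose processed signal, the background-subtracted brightness of a spot, reached 500 on at least 1 of them. This rule retained 126 of 1077 noncoding transcripts on the array and of 33238 transcripts in all. Each transcript is represented by its brightest probe, and a change is the difference of log2 quantile-normalized signals, feeding minus fasting, so that a value of 1 is 2-fold.

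The liver RNA came from male C57BL/6J mice, or mice of that background, aged about 8 to 12 weeks, and RNA of 3 mice was pooled for each of 2 one-color Agilent arrays. Fasting mice had no food for 16 h according to one label and for about 14 to 16 h overnight according to another. The other group is labeled both as fed ad libitum and as given nutrition after a fast, and is called feeding here. With 1 pooled array per group, the differences have no replicate check, the spread between mice is unknown, and neither p-values nor standard errors are given. In whole liver, fewer cells of a type and less RNA per cell cannot be told apart.

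Long noncoding RNAs are spliced or unspliced transcripts without a long reading frame. Some build nuclear bodies, some are the precursors from which small nucleolar RNAs (snoRNAs) or microRNAs are cut, and some are read from the strand opposite a coding gene. Transcribed pseudogenes are copies of coding genes that no longer give the protein, and a probe to such a copy may also bind the transcript of the parent gene.

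Of the 1077 noncoding transcripts, 615 were not well above background on both arrays and 336 were well above background but below the signal minimum. The remaining 126 transcripts comprised 56 long noncoding RNAs, 51 transcribed pseudogenes, 4 noncoding transcripts of genes typed as protein coding (Tmem80, Bmp1, Bcor and Zfp672), the 4.5S RNA Rn4.5s, the minor spliceosome RNA Rnu12 and 13 transcripts that the RefSeq gene table did not match by identifier. Their processed signals ran from 195 to 122953 upon fasting and from 164 to 128065 upon feeding, with medians of 1262 and 1471 against medians of 53.7 and 45.6 over all probes. No spot of a member was saturated, and the highest local background at a member spot was 51 upon fasting and 27 upon feeding.

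Just inside the minimum were 9330151L19Rik, with signals of 501 and 415 upon fasting and feeding, BC065397, with 498 and 510, and 4933417G07Rik, with 450 and 511. Just outside were the microRNA precursor Mir22hg, with 476 and 255, E330011O21Rik, with 427 and 474, and Snhg18, with 466 and 333. For 104 members the minimum was met on both arrays. A further 8 members met it upon feeding only and 14 upon fasting only, and since those 22 passed through the array on which they were brighter, their difference was partly set by the rule.

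Most members had similar signals on the arrays, and 97 of 126 (77.0%) lay within 1.5-fold, against 79.8% of 8471 coding (NM_) transcripts taken by the same brightness rule. Upon feeding, 11 of 126 members (8.73%) were at least 2-fold higher and 8 (6.35%) at least 2-fold lower. Among the coding transcripts, 2.97% were at least 2-fold higher and 4.13% at least 2-fold lower, and among all 20465 transcripts well above background on both arrays 3.09% and 4.42%, respectively. When the minimum was required on both arrays, 7 of 104 members were higher and 4 lower, against 1.97% and 2.94% of 7697 coding transcripts. The members had a median change of 0.10 (quartiles -0.18 and 0.42) and the coding transcripts a median of 0.00. Because these shares were computed on the values that chose the members, they describe the set and test nothing.

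**Figure D1:**
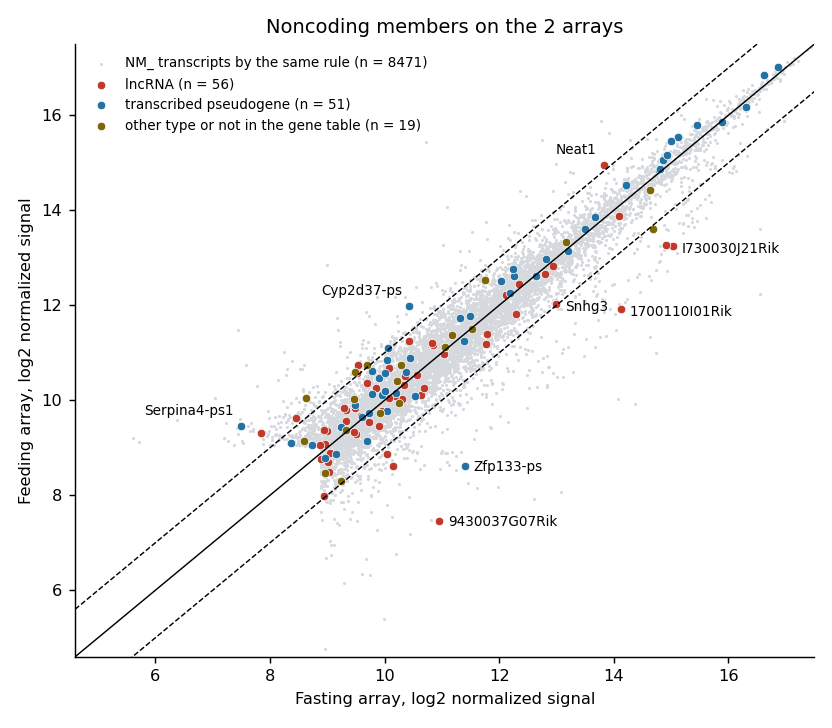
Log2 normalized signal of each member on the fasting array (x axis) and the feeding array (y axis), colored by transcript type. The coding (NM_) transcripts taken by the same brightness rule are in grey. The solid line marks equal signal and the dashed lines a 2-fold difference, and 11 members lie above the upper and 8 below the lower dashed line.

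The measured error covers the array only. For probes by the same brightness rule that were printed several times, the spread of spots within each array was combined over both arrays (n = 177 probes). It gives an SD of 0.094 on the log2 scale for a difference between single spots, and leaves out any difference between the arrays themselves. Across different probes of the same coding transcript, the change of a single probe had an SD of 0.26 (n = 1219 transcripts). For 124 of the 126 members each array carried 1 spot. Among the other 2, the 10 spots of one Tug1 transcript gave 1221 to 1354 upon fasting and 822 to 1101 upon feeding (-0.29). The spots of 9330151L19Rik gave 472 to 537 and 375 to 454 (-0.12). Neither pair of ranges overlapped, but these signals are not normalized between the arrays. The separation therefore includes any difference in general brightness between the arrays, and it does not cover the spread between mice.

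The long noncoding RNA 9430037G07Rik showed the largest difference of all members, with a signal of 2006 upon fasting and 164 upon feeding, a change of -3.49 or 11.2-fold. The signal of 9330159M07Rik was 1164 upon fasting and 369 upon feeding, a change of -1.54. Both genes lie on chromosome 9 beside members of the Trim43 family of tripartite motif genes, and the windows around their annotated starts (250 bases before to 50 after, RefSeq, GRCm38.p6) share a near-identical stretch. In the pair below the shared stretch is in capitals, at bases 1 to 87 of the first window (chr9:88599194-88599493, minus strand) and at bases 213 to 300 of the second (chr9:88858752-88859051, minus strand).
9430037G07Rik: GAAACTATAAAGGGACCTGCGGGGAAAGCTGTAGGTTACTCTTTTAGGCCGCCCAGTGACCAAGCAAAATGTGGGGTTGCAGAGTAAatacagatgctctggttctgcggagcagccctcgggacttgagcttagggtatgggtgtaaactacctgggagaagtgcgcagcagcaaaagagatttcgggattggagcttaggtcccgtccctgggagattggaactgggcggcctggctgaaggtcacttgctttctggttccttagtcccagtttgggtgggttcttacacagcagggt
9330159M07Rik: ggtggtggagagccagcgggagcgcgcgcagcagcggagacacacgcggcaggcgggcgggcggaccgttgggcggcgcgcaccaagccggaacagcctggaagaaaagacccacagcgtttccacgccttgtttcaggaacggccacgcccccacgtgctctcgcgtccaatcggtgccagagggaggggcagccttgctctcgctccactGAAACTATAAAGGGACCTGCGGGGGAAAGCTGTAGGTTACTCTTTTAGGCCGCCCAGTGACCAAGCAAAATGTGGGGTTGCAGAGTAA
Over 88 aligned positions 87 were identical (98.9%), with 67 bases in an unbroken match. Among the start windows compared, no other pair of members shared more than 16 bases, the next being Snhg12 and Snhg16. Whether the 2 probes read 1 or both loci was not tested. Trim43c, the coding gene that overlaps 9330159M07Rik, had signals of 367 and 289 and a change of -0.18, and no probe for Trim43a, the neighbor of 9430037G07Rik, was measured.

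Zfp133-ps, a pseudogene of the zinc finger family, had a signal of 2729 upon fasting and fell below the minimum upon feeding, to 373 (-2.77). Of the other members at least 2-fold lower, 4 remained far above the minimum on both arrays. For 1700110I01Rik the signal was 17816 upon fasting and 3846 upon feeding (-2.20), although its 2 other probes were dim, with 14.0 and 8.96, and with 4.35 and 4.73. For I730030J21Rik it was 33909 and 9691 (-1.78), and for Gm6994 it was 31213 and 9785 (-1.64). The unnamed transcript NR_002860 had 26611 and 12274 (-1.08, or -0.88 with median scaling, short of 2-fold), and its 2 other probes gave -1.29 and -2.51, so that all 3 probes were lower upon feeding. The last of the 8, 2810013P06Rik, had signals of 1083 and 443 (-1.17).

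Snhg3 and 1810053B23Rik lay just short of 2-fold. Snhg3, a snoRNA host, had 8281 upon fasting and 4112 upon feeding (-0.98). The signal of 1810053B23Rik was 520 and 239 (-0.97, or -1.01 and past 2-fold with scaling by the 75th percentile), and a second probe of the same transcript gave 343 and 150, a 2-fold difference.

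Among the 11 transcripts with at least 2-fold higher signal upon feeding, 2 are pseudogenes of families that hepatocytes express. Serpina4-ps1, a pseudogene of the serine protease inhibitor family, had a signal of 195 upon fasting and 677 upon feeding, a change of 1.96, the only increase beyond 3-fold. Cyp2d37-ps, a pseudogene of the Cyp2d cytochrome P450 family of drug-metabolizing enzymes, had 1411 and 4015 (1.56). Neither neighboring family gene moved as far: Serpina5 was dim, with 29.4 and 32.3 (0.35), and Cyp2d34 had 7102 and 5507 (-0.34). The pseudogene Gm5643 also belonged to the 11, with 1104 and 2159 (1.03).

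Neat1, the scaffold RNA of the nuclear bodies called paraspeckles, had a signal of 14648 upon fasting and of 31069 upon feeding (1.12). Dancr, a long noncoding RNA that hosts a snoRNA, had 771 and 1683 (1.20). The other long noncoding RNAs were 2310040G24Rik, with 245 and 606 (1.46), 1700001L05Rik, with 370 and 763 (1.17), and 2810408I11Rik, with 764 and 1492 (1.05). For 1700001L05Rik a second, dimmer probe gave 82.0 and 170 (1.26), close to the change of the first.

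The remaining 3 of the 11 were 2 transcripts without a matched name and a transcript of a coding gene. NR_033577 had 421 and 1030 (1.42), and NR_033578 had 746 and 1514 (1.11). The noncoding transcript of Zfp672, which encodes a zinc finger protein, had 855 and 1682 (1.05), while a probe to the coding transcript of this gene gave 656 and 904 (0.57). The noncoding and the coding probe thus differed in the same direction, the latter by less than 2-fold.

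**Figure D2:**
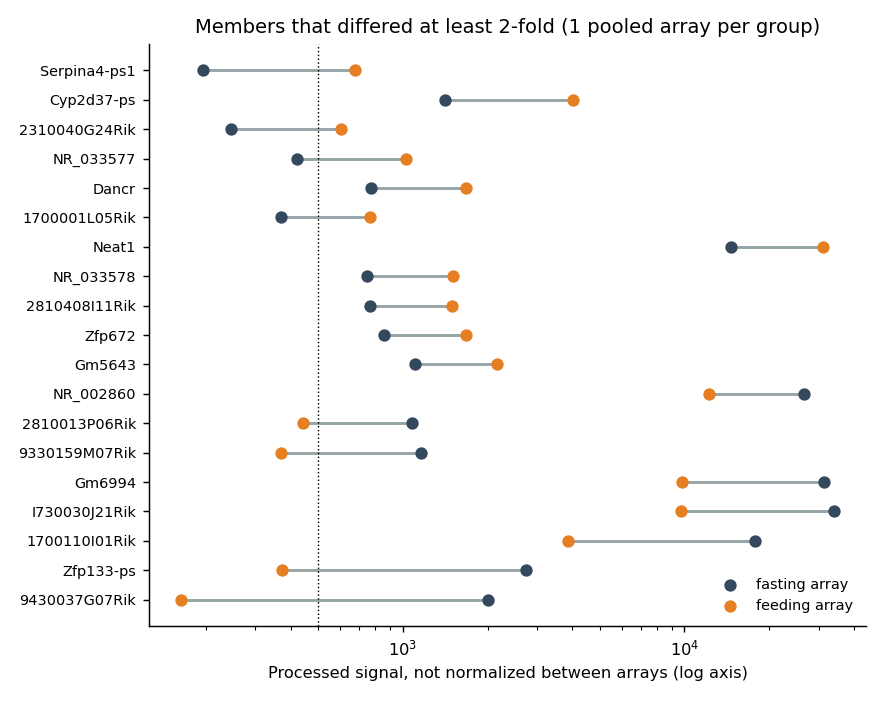
Processed signal (x axis, log scale) on the fasting array and the feeding array for the 19 members that differed at least 2-fold, ordered by change. The dotted line is the signal minimum of 500, and 8 of the 19 cross it between the arrays.

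A different background correction (normexp with an added offset) started from median spot and local background signals instead of the processed signals. Under it, 5 of the 11 higher members kept a difference of at least 2-fold. They were Serpina4-ps1 (1.55), Cyp2d37-ps (1.42), Neat1 (1.16), NR_033577 (1.13) and Dancr (1.04). The other 6 then lay between 0.89 for Gm5643 and Zfp672 and just under 2-fold for NR_033578. Among the 8 lower members 7 kept it, and 2810013P06Rik then had a change of -0.94.

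By type, long noncoding RNAs provided 5 of the 11 higher and 6 of the 8 lower members, or 8.93% and 10.7% of 56. Transcribed pseudogenes provided 3 and 1, or 5.88% and 1.96% of 51. Among coding transcripts by the same rule 2.97% were higher and 4.13% lower. The 56 long noncoding RNAs had a median change of -0.08, with 24 above 0, which became 0.11 and 32 above 0 when each array was scaled by its median instead. The 51 transcribed pseudogenes had a median of 0.20, and 39 of them were above 0, or 41 and 45 of them when the arrays were scaled by the 75th percentile and by the median. With the mean of a transcript's probes, 36 of them were above 0 (median 0.18). Among coding transcripts taken by the same brightness rule, which does not match them for brightness, 4259 of 8471 were above 0.

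**Figure D3:**
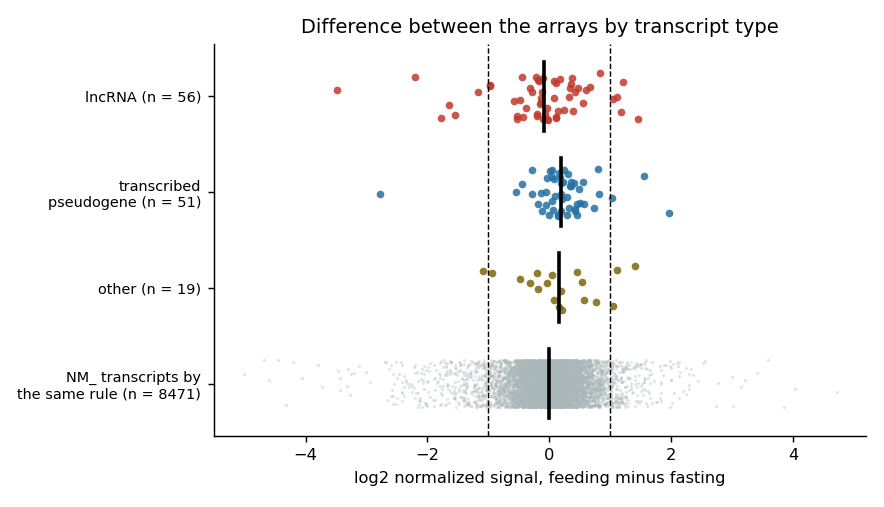
Change of each transcript (x axis, log2 signal, feeding minus fasting) by type, with black bars at the medians. The coding (NM_) transcripts taken by the same brightness rule are in the lowest row. Dashed lines mark 2-fold, and the medians are -0.08 for long noncoding RNAs, 0.20 for transcribed pseudogenes and 0.00 for coding transcripts.

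The nuclear RNAs Neat1 and Malat1 were both brighter upon feeding. Malat1, which resides in nuclear speckles and is encoded next to Neat1, had signals of 1403 and 2401 and a change of 0.84, short of 2-fold (1.01 with median scaling, past it). Proteins of paraspeckles and speckles were examined beside them, and of 13 measured 1 was at least 2-fold higher and 0 lower, with a median of 0.25. The 1 was Pspc1, paraspeckle component 1, with 366 upon fasting and 795 upon feeding (1.25). Srrm2, a scaffold protein of speckles, was dim, with 40.6 and 57.9 (0.75), and the RNA-binding protein Hnrnpk had 10278 and 6270 (-0.70).

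The other members on the same list, of RNAs for nuclear bodies and X inactivation, gave mixed values. A place on this list does not show where an RNA resides in the cell. Norad, which binds Pumilio proteins, had 3555 and 2679 on its brightest probe (-0.38), but 2 dimmer probes gave 0.72 and 0.21. Tug1 is represented by 2 transcripts, of which the one with 10 spots had 1299 and 1010 (-0.29) and the other had 856 and 1287 (0.67). A further probe of the first gave 336 and 145 (-1.02), so no single direction holds for Tug1.

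The snoRNA hosts are spliced transcripts whose introns release snoRNAs, the guides for modification of ribosomal RNA, while their exons are often removed by nonsense-mediated decay. Of 22 on the list 11 were matched on the array and all 11 were well above background, of which 6 were members. Besides Dancr (1.20) and Snhg3 (-0.98), the members were Snhg16, with 746 and 881 (0.35), Snhg12, with 2142 and 2196 (0.08), Snhg6, with 7174 and 6400 (-0.14, or 0.07 with median scaling), and Snhg1, with 757 and 601 (-0.21). The 6 thus spanned a range from higher by 2-fold to lower by almost as much, with a median of -0.03, which turned to 0.045, 0.17 and 0.067 with 75th percentile scaling, median scaling and normexp. Of the 5 dimmer hosts, Snhg7 had 244 and 434, just past 2-fold higher, and the others lay between -0.48 for Snhg5 and 0.61 for Snhg17.

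All 8 core proteins of snoRNA-protein complexes (snoRNPs) were above 0, with a median of 0.60, and remained so under each scaling and background correction tried, with medians of 0.55 to 0.77. Nop56, a core protein of box C/D complexes, was the only one past 2-fold, with 2626 upon fasting and 7268 upon feeding (1.51). Its partner Nop58 had 4590 and 8301 (0.89), and Nhp2, of box H/ACA complexes, had 4701 and 7383 (0.69). Of the 10 factors of nonsense-mediated decay 0 were past 2-fold, with a median of 0.17. Among them the kinase Smg1 had 2524 and 1507 (-0.69), the endonuclease Smg6 had 2247 and 1325 (-0.70), and Smg5 had 1576 and 2392 (0.66).

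**Figure D4:**
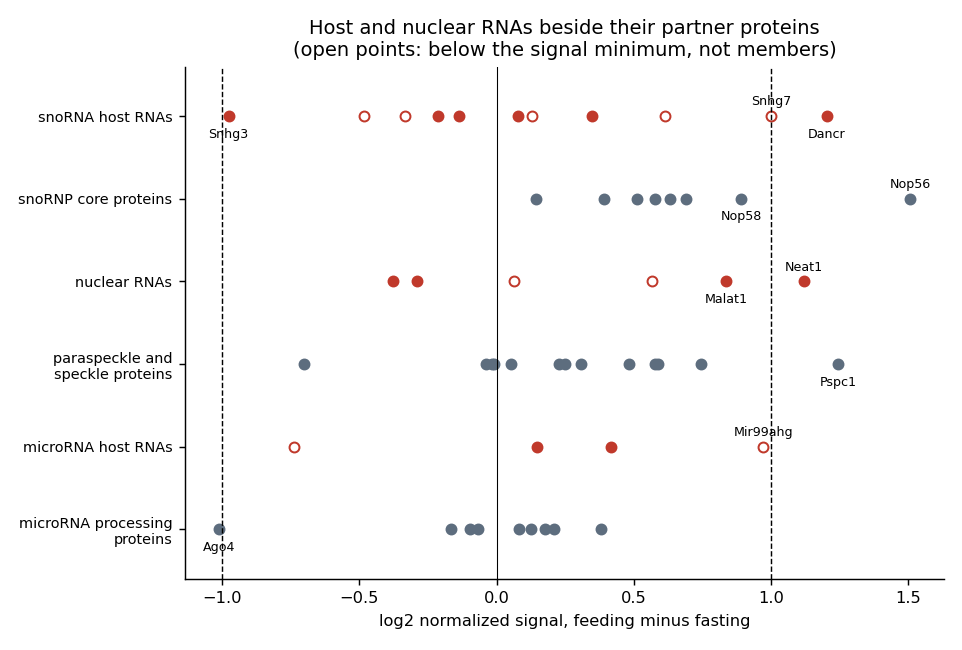
Change (x axis, log2 signal, feeding minus fasting) of listed RNAs in red and of their partner proteins in grey. The RNAs are snoRNA hosts, microRNA hosts and those listed for nuclear bodies and X inactivation (row labeled nuclear RNAs). Red points are filled for members and open for transcripts below the signal minimum. The dashed lines mark 2-fold, and the snoRNP core proteins all lie above 0 (0.15 to 1.51) while the host RNAs lie on both sides.

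Of the microRNA precursors, 2 were members, and both lie on chromosome 14. Mir17hg carries the miR-17 to miR-92a cluster and had signals of 520 upon fasting and 630 upon feeding (0.42). Dleu2 carries miR-15a and miR-16 and had 1344 and 1422 (0.15). Neither differed by 2-fold, and the mature microRNAs were not measured here. Because the hosts matter through what is cut from them, the better known mature arms (RefSeq, GRCm38.p6) are given with the seed, bases 2 to 8, in capitals; the first 6 are from Mir17hg and the last 2 from Dleu2.
mmu-miR-17-5p: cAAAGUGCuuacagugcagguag
mmu-miR-20a-5p: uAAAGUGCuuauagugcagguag
mmu-miR-18a-5p: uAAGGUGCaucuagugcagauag
mmu-miR-19a-3p: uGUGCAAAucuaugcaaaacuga
mmu-miR-19b-3p: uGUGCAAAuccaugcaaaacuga
mmu-miR-92a-3p: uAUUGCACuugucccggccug
mmu-miR-15a-5p: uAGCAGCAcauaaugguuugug
mmu-miR-16-5p: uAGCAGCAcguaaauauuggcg
The seed of miR-17 is that of miR-20a, the seed of miR-19a is that of miR-19b, and the seed of miR-15a is that of miR-16. Of the proteins that process and carry microRNAs 9 of 10 were well above background, with a median of 0.08. One of them, the Argonaute protein Ago4, was past 2-fold, with 347 upon fasting and 151 upon feeding (-1.01). Among the largest changes after it were Dgcr8, the partner of Drosha, with 305 and 356 (0.38), and the export receptor Xpo5, with 1106 and 1214 (0.21).

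Airn, the antisense RNA that silences the paternal copy of Igf2r, was the sole member among the imprinted transcripts matched, with 537 and 626 (0.35), and a second probe gave 209 and 487 (1.39). Igf2r, read from the opposite strand, had 3275 and 3788 (0.24). Pvt1, which lies next to the Myc oncogene, had 525 and 514 (0.11), a second probe gave 327 and 196 (-0.55), and Myc had 3059 and 2129 (-0.49). The list of housekeeping RNAs had 0 members, since its 2 transcripts matched on the array, Rmrp and Terc, were both dim.

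Of 113 members with a gene record, the nearest coding gene was also measured well above background for 93, and 52 of these neighbors differed in the same direction as the member. Among long noncoding RNAs the same direction was seen in 34 of 51 pairs, with a Pearson correlation of 0.43 and a Spearman correlation of 0.35 across pairs. Among transcribed pseudogenes it was seen in 15 of 38 (Pearson 0.01, Spearman -0.24). For the members that differed at least 2-fold it was seen in 12 of 14 pairs, with Pearson 0.71. Those 14 were picked by the member's own change on these arrays, and some met the signal minimum on 1 array only. Their values therefore test nothing. Over all 93 pairs Pearson was 0.27 and Spearman 0.15. These pairs share both arrays and their scaling, and are descriptions across genes, which are not independent replicates.

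Single pairs show how far the neighbors went. Frmd8, nearest to Neat1, had 2670 upon fasting and 4741 upon feeding (0.87). Arfgap3, nearest to 1700001L05Rik and on the same strand, had 856 and 1522 (0.90). Galnt6, nearest to I730030J21Rik and on the same strand, had 603 and 306 (-0.83). Frmd8, Arfgap3 and Galnt6 each lie farther than 1 kb from the member. Of the 14 neighbors only Ankrd11, within 1 kb of 2810013P06Rik on the opposite strand, passed 2-fold, at dim signals of 23.5 and 7.45 (-1.52). The reverse also occurred: Trim13, which overlaps Dleu2 on the opposite strand, had 305 and 665 (1.26) beside a change of 0.15 for Dleu2, and Esrp2, an epithelial splicing factor that overlaps 1810019D21Rik, had 1457 and 2862 (1.03) beside a change of 0.10.

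**Figure D5:**
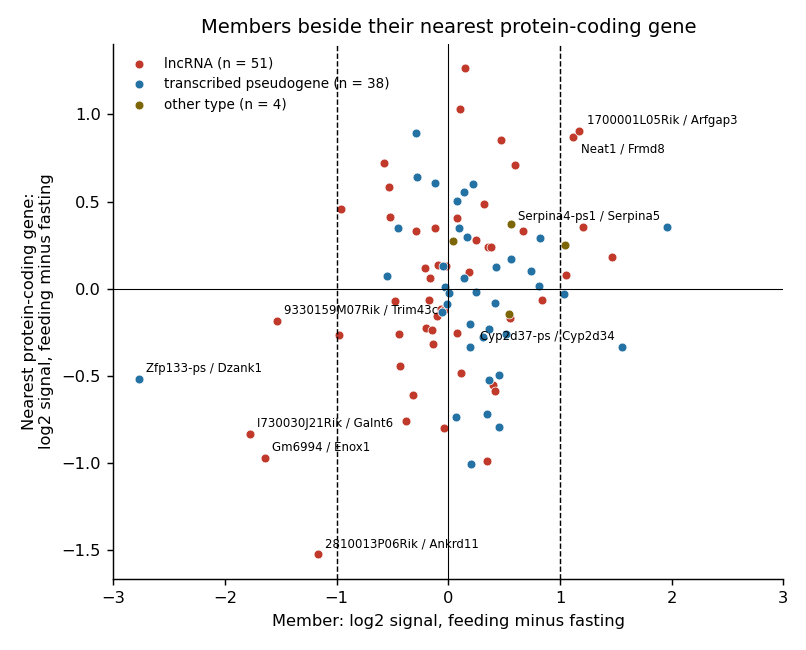
Change of each member (x axis) and of its nearest protein-coding gene (y axis), both as log2 signal, feeding minus fasting, for 93 pairs measured well above background and colored by the type of the member. Dashed lines mark a 2-fold change of the member, and 12 of the 14 pairs outside them have the same sign on both axes.

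The start windows of the members past 2-fold were searched on both strands for motifs of factors known for fasting and feeding responses. A window was given for 50 of 113 named members and for 11 of the 16 past 2-fold, which have 14 windows. The E-box CACGTG, bound by basic helix-loop-helix factors of the clock and of lipid synthesis, was found in 4 of these 14 windows, which belong to 3 genes, and in 6 of 59 windows of members (10.2%), against 7.15% of all 32851 windows. The cAMP response element core TGACGT was found in 2 of the 14 and in 7 of the 59 (11.9%), against 7.51% of all, and both motifs share the letters ACGT. The forkhead motif GTAAACA (3.65% of all windows), the D-box TTATGNAA (3.38%), SRE-1 and ERSE were found in 0 of the 14.

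I730030J21Rik, lower upon feeding, has the cAMP element core on both strands at overlapping positions (chr15:100732688-100732987, minus strand), and 1700001L05Rik, higher upon feeding, has 2 E-boxes (chr15:83367248-83367547, minus strand). Both windows are shown with the matches in capitals (RefSeq, GRCm38.p6).
I730030J21Rik: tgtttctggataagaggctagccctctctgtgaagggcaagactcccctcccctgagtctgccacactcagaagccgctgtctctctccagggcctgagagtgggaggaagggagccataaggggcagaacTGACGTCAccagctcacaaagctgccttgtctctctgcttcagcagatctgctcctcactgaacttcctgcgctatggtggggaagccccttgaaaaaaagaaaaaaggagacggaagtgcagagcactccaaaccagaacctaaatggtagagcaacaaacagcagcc
1700001L05Rik: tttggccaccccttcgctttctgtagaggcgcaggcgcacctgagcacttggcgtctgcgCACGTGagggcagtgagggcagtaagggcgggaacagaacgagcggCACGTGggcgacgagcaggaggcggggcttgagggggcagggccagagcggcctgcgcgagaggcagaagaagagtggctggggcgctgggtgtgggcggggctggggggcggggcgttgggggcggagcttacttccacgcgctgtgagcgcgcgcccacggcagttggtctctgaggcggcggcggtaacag
The annotated start follows base 250 of each window, the cAMP match lies at bases 132 to 139, and the E-boxes begin at bases 61 and 107. The other E-boxes were in 9330159M07Rik and 2810408I11Rik, which differed in opposite directions, and the one of 9330159M07Rik lies outside the stretch it shares with 9430037G07Rik. A match is a description of letters in a window and not evidence of binding.

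The 5 members with the highest mean signal were pseudogenes with small changes, and since probes differ in brightness this does not rank their abundance. Gm12070 had 122953 upon fasting and 128065 upon feeding (0.14), Gm5523 had 104127 and 115384 (0.22), and Gm6548 had 83333 and 71791 (-0.12, or 0.02 with median scaling). H2-K2, a pseudogene of the class I histocompatibility genes, had 62280 and 57650 (-0.03, or 0.12 with median scaling), and Gm8709 had 45582 and 55429 (0.35). The 2 other probes of Gm8709 lay on the other side of 0, with 2049 and 1814 (-0.14) and with 5105 and 4239 (-0.22), and the mean of its probes gave -0.0057. In all, 12 pseudogenes with a numbered Gm name exceeded a signal of 10000, and their changes lay between -0.12 and 0.46, none past 2-fold.

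Where a pseudogene is named after a gene that was measured, both values could be set side by side. Selenok-ps1 had a change of 0.51 and Selenok, which encodes a selenoprotein of the endoplasmic reticulum, of 0.52. Hmgb1-rs17 had 0.48 and Hmgb1, a chromatin protein, 0.39. Gpr137b-ps had -0.29 and Gpr137b -0.24, and Pisd-ps1 had 0.08 and Pisd, an enzyme of phospholipid synthesis, 0.09. These 4 pseudogenes were close to their namesakes. By contrast Pisd-ps3 had -0.18, Smarca5-ps had 0.05 against 0.24 for Smarca5, and Tyms-ps had -0.05 against -0.49 for Tyms, the thymidylate synthase. Whether the pseudogene probes also bind the namesake transcripts was not tested, since probe sequences were not used here.

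Other probes of the same transcripts or genes were available for some members. Of 49 such probes that were well above background 32 differed in the same direction as the member, and 0 differed in the opposite direction past 2-fold. Only 3 of the 19 members past 2-fold had such a probe, so these counts say little about the rest of the 19. Among the 15 members with several bright probes, the direction was the same in 11, against 83.1% of 1219 coding transcripts with several bright probes. The unnamed member NR_002840 differed in size between probes, with a change of 0.17 on its brightest probe, while the others gave 561 and 1043, and 826 and 1673, both just past 2-fold higher.

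Hepatocyte markers had similar totals on the arrays, whereas markers of leukocytes and Kupffer cells, stellate cells and endothelial cells had lower totals upon feeding and cholangiocyte markers a higher one. The summed signal of 7 hepatocyte markers was 681230 upon fasting and 640824 upon feeding. That of 6 leukocyte and Kupffer cell markers was 24127 and 14873, with 5 of 6 below 0 (median -0.44), that of the stellate cell markers 29303 and 17530, with 3 of 4 below 0 (median -0.81), and that of 5 endothelial markers 22992 and 17913, with 5 of 5 below 0 (median -0.35). Most of the stellate cell total came from the collagen genes Col1a1 (-0.83) and Col3a1 (-0.78), while Lrat, with 1584 and 1818, was higher (0.24). The total of the 4 cholangiocyte markers was 481 upon fasting and 1675 upon feeding. Nearly all of it came from Sox9, with 398 and 1600 (2.11). Krt19 (-0.31) and Epcam (0.08) were dim, and Krt7 was not well above background. The total of 3 red blood cell markers was 24062 and 22450 (median -0.05). Of 6 pancreatic markers 3 were well above background, namely Ctrb1, with 371 and 251 (-0.40), Cela1, with 41.2 and 41.6 (0.24), and Cela2a, with 52.7 and 7.23 (-2.70), whereas Prss2, Pnlip and Cpa1 were not. The part of these shifts in the changes of the noncoding RNAs, lower or higher, was not tested.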

How the data were processed

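Total RNA from the liver of 3 mice per group was pooled, labeled with Cy3 and hybridized to 1 Whole Mouse Genome array per group. The authors extracted spot intensities with Agilent Feature Extraction 11.0.1.1, and the deposited intensities are background-subtracted processed signals as they stood before quantile normalization and the 2-fold filter, which the authors applied afterwards. The series' deposited value table holds the local background for 44397 of 44397 spots and was not used.

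Control and outlier spots were removed, the log2 processed signals of each probe were averaged, and the 39402 probes were quantile normalized (Python 3.11.15, numpy 2.4.6, pandas 2.3.3). A probe counted as well above background when more than a share of 0.5 of its spots was flagged so on both arrays. Signals printed are not normalized; changes are. The array design follows mm9, so transcripts were named by identifier through RefSeq tables of GRCm38.p6 (113 of 126 members), which also gave neighbors, start windows and microRNAs; start windows were aligned with Biopython 1.88. Without probe sequences, signal from paralogs or from a parent gene could not be separated.

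With 1 array per group no test was possible, and the number of arrays limits the precision. The noncoding RNAs and the lists were chosen with earlier results of these data known. Named members are the 10 largest changes each way, the 5 brightest, members of 6 noncoding lists and those nearest the signal minimum, plus up to 3 proteins of each of 4 partner lists; Gm5643, other probes and neighbors were named after their values were seen. Alternatives were each array scaled by its median or 75th percentile, normexp with an offset of 50 (limma 3.58.1, R 4.3.3), the mean of a transcript's probes, outlier spots kept, every spot well above background, minima of 200, 1000 or none, folds of 1.5 and 3, counting by gene name and leaving out coding genes. The procedure was tested on simulated data.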

Additional observations from a re-analysis of the deposited data

How the results depend on the processing

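The 11 higher and 8 lower members depended most on the brightness and fold thresholds. With normexp 5 were higher. With a minimum of 200 there were 17 higher and 13 lower of 189, with no minimum 29 and 29 of 462, and with the minimum on both arrays, chosen after seeing the data, 7 and 4 of 104. With no minimum, 3.09% of all 20465 transcripts were higher and 4.42% lower. At 1.5-fold 18 of 126 members were higher and 11 lower, against 856 and 853 of 8471 coding transcripts by the same brightness rule. At 3-fold 1 member was higher and 5 were lower. For 3-fold and for the minimum of 200 no share of coding transcripts is given. The median change of 0.10 became 0.28 with median scaling, which moved the median of all probes well above background to 0.11, and -0.030 without the transcribed pseudogenes (also chosen after seeing the data). The other alternatives gave 8 to 12 higher and 7 to 9 lower members and medians of 0.04 to 0.15. Scaling by the 75th percentile kept all 11 and 8, and median scaling kept 11 and 7, with NR_002860 lost and Malat1 gained. No paired analysis was possible because each group has 1 array, and no replicate could be left out. Precision is limited by 1 array and, for most members, 1 spot per group. The normexp offset of 50 was added to every signal and so weighs most on dim ones. How much of the dim members' smaller changes it accounts for was not tested.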

Other observations

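Several noncoding RNAs on the lists were measured well above background but below the signal minimum. Those given here are examples, mostly with larger changes. Others on the lists changed less, such as Meg3 (-0.40), Peg13 (-0.20) and Snhg10 (0.13). Hnf4aos, read antisense to the gene of the hepatocyte nuclear factor HNF4A, had signals of 131 upon fasting and 380 upon feeding (1.72). Gm15441, read antisense to Txnip, had 118 and 29.0 (-1.81). The microRNA precursors Mir99ahg, with 54.0 and 90.5 (0.97), and Mir22hg, with 476 and 255 (-0.74), differed by less than 2-fold. Rmrp, the RNA of the RNase MRP ribonucleoprotein, had 182 and 86.5 (-0.85). Of the 462 noncoding transcripts well above background on both arrays, without a signal minimum, 29 were at least 2-fold higher and 29 at least 2-fold lower upon feeding. Among all 20465 transcripts well above background on both arrays, 3.09% were higher and 4.42% lower by that much.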
